A study of Mus musculus with 6 samples.

Results

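The 26S proteasome is the large protease that degrades ubiquitin-tagged proteins in the cytosol and nucleus. The genes examined here are 31 genes for its constitutive core and regulatory particle, chosen by gene symbol: Psma1 to Psma7, Psmb1 to Psmb4, Psmc1 to Psmc6 and Psmd1 to Psmd14, without the catalytic subunit genes. All 31 were found among the 54446 gene identifiers of the count table. They were measured by RNA sequencing of intestine from wild-type mice in 2 groups of 3 libraries, labelled NEC, the abbreviation of necrotizing enterocolitis, and control. NEC pups were gavaged with 40 µl of 33% Esbilac formula at intervals of 4 h over 96 h. Hypoxia (99.9% nitrogen for 100 s) followed by cold (4 °C for 10 min) was applied at intervals of 12 h. Control pups stayed with their dams, without hypoxia or cold. Both groups were killed after 96 h. No source used here gives strain, age, sex or intestinal segment. Whether each library is 1 animal is also not said, and p-values therefore reflect only the variation among these 6 libraries, which may be partly technical.

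As background, the 20S core is a barrel of stacked rings whose outer alpha rings gate the entry and whose inner beta rings hold the proteolytic sites. The 19S regulatory particle caps the barrel: its base carries an ATPase ring that unfolds substrates and threads them inside, and its lid removes the ubiquitin chain. Subunits assemble in fixed ratios, and the transcription factor NRF1 is known to raise proteasome genes together when proteasome activity falls short. Under interferon, 3 catalytic beta subunits are replaced by inducible counterparts to form the immunoproteasome. The label of the genes holds for 28 of the 31. Psmd5, Psmd9 and Psmd10 encode chaperones that help assemble the base and leave before the particle is complete, so they are described on their own.

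Total counts ranged from 74912430 to 97445491 in NEC libraries and from 69441184 to 106304239 in control libraries. Epithelial markers defined the tissue in both groups, with the 12 genes of that list summing to 13267 to 20542 CPM (CPM stands for counts relative to the library size after TMM scaling) in NEC and 16274 to 20732 CPM in control, led by Lgals4 and Fabp2. Control libraries were not uniform. Xist, which is transcribed from the inactive X chromosome, stood between 0.429 and 0.546 CPM in NEC libraries. In control replicates 1 to 3 Xist stood at 179, 343 and 1.17 CPM. The Y-linked Ddx3y was at 25.6, 44.8 and 35.1 CPM in NEC replicates 1 to 3, and at 19.8, 1.29 and 30.8 CPM in control replicates 1 to 3. Control replicate 1 thus held both kinds of transcript and may contain RNA of more than 1 mouse. Low Xist with Ddx3y present was seen in every NEC library and in control replicate 3, so sex and group cannot be fully told apart. NEC replicate 1 and control replicate 3 also carry another sample code (AG181028) than the other 4 libraries (AG181017), whose meaning the labels do not give.

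None of the 31 genes passed the test between NEC and control, and yet their estimates lay mostly on 1 side. With edgeR's quasi-likelihood test adjusted over all 19176 genes tested, 0 of 31 were called at an adjusted p below 0.05, where 0.704% of all genes were called. The adjusted p-values ran from 0.1 for Psmb2 to 0.996 for Psmc6. The log2 fold change was positive, that is higher in NEC, in 28 of 31, where 51.9% of all genes tested had a positive value. The median over the 31 was 0.48, against 0.03 over all genes tested. At an unadjusted p below 0.05 there were 5 higher genes and 0 lower, where 7.61% of all genes were higher at that level. DESeq2 called 2 of the 31, Psmb2 and Psmc4, both higher, where it called 3.61% of all genes higher, and limma-voom called 0. The estimates of single genes were imprecise: the median standard error was 0.26, the 95% interval lay above 0 in 5 genes, and it reached past a log2 fold change of 1 in 21. In 13 of 31 every NEC library lay above every control library, where 10.8% of all genes tested did so, and in 0 of 31 every NEC library lay below. In whole tissue RNA, fewer cells of a type and less RNA per cell cannot be told apart.

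The sum of the 31 genes shows the size of the shift. Summed over the 31, CPM stood at 3433, 3690 and 4156 in NEC replicates 1 to 3, and at 2902, 3348 and 2257 in control replicates 1 to 3. Every NEC library lay above every control library, but the gap from NEC replicate 1 to control replicate 2 was small. The means were 3760 ± 366 CPM in NEC and 2836 ± 549 CPM in control (SD, n = 3 each), a ratio of 1.33. No p-value is given for this sum, as the genes were chosen together. The 20S genes summed to 1489, 1863 and 2036 CPM in NEC and to 1444, 1731 and 1019 CPM in control, and here NEC replicate 1 lay below control replicate 2. The 19S genes, assembly chaperones included, summed to 1945, 1827 and 2120 CPM in NEC and to 1458, 1617 and 1238 CPM in control, with no overlap.

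The control libraries also differed among themselves. Control replicate 3 held the lowest value of 24 of the 31 genes. Control replicate 2 held the highest value of 6 genes and the lowest of 4. NEC replicate 3 held the highest value of 15. Relative to each gene's mean over the 6 libraries, the median log2 deviation of the 31 genes was 0.10, 0.22 and 0.36 in NEC replicates 1 to 3, and -0.16, 0.01 and -0.50 in control replicates 1 to 3. Within the AG181028 pair, 30 of 31 genes were higher in NEC replicate 1 than in control replicate 3, with a median log2 ratio of 0.63. That pair is 1 library against 1, and the share over all genes is not given for it. Within the 4 AG181017 libraries, 26 of 31 were higher in NEC, with a median log2 ratio of 0.39. In the edgeR fit of these 4 libraries 51.6% of all genes tested had a positive log2 fold change. The same 26 were higher within both codes, which was nearly fixed with 30 of 31 higher in the AG181028 pair.

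**Figure D1:**
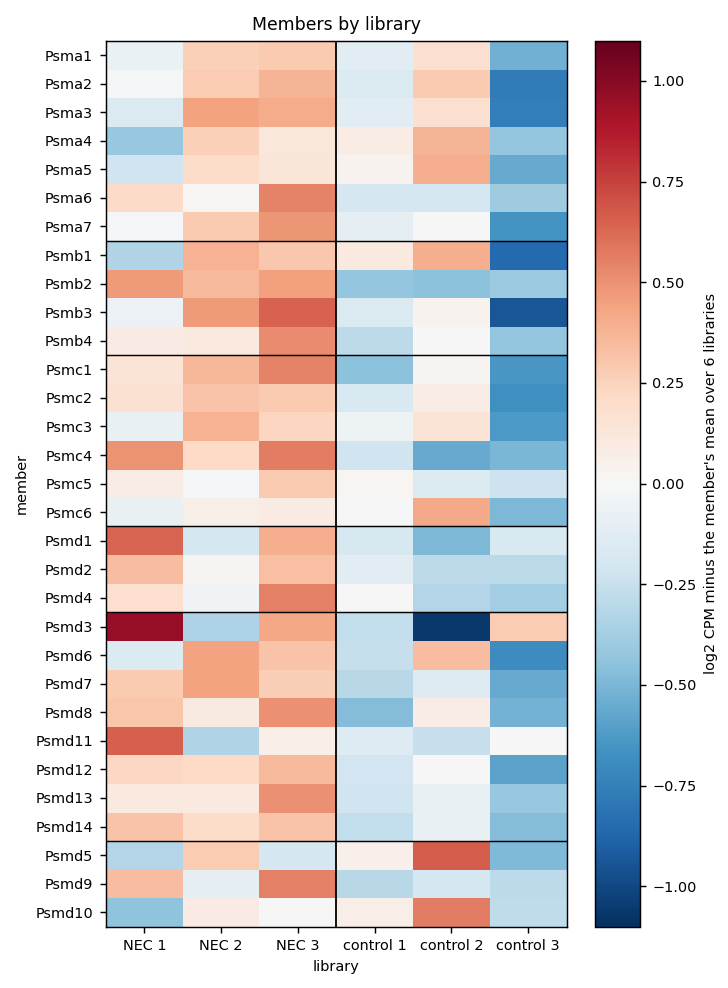
Log2 CPM of each of the 31 genes (rows, with lines between the alpha ring, beta ring, ATPases, other base subunits, lid and assembly chaperones) in each library (columns), as the difference from the gene's mean over the 6 libraries. Control 3 is the lowest library for 24 genes, while control 2 is the highest for 6, Psmd5 and Psmd10 among them.

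Library-wide trends ran beside these differences. Among the 5912 genes tested with a mean of at least 25 CPM, short transcripts were lower in control replicate 3: the shortest of 6 length classes had a median log2 deviation of -0.37 there, against 0.28 in NEC replicate 3. In that class, which holds 11 of the 31 genes, the median log2 fold change was 0.14 over its 987 genes and 0.48 over the 11. In the next class, which holds another 11, it was 0.01 over all and 0.52 over the 11. Over the 6 classes of GC content the median ran from -0.09 to 0.04. With each library's length trend taken out, the median over the 31 was 0.40, and with each GC trend taken out it was 0.47. Both corrections were chosen after seeing the data. Of the marker lists edgeR called 0 genes, but the sums of 3 lists did not overlap between the groups. The 10 neutrophil markers summed to 27.9 to 54.2 CPM in NEC and 6.43 to 10.4 CPM in control, with Elane at 0 in every library. The largest part of that sum was Ltf, at 21.8 CPM in NEC and 6.04 CPM in control on average. Only 6 of the 10 passed the filter, and 5 of them had a positive log2 fold change. Csf3r averaged 0.292 CPM in NEC and 0.545 CPM in control. The 8 erythroid markers summed to 476 to 2750 CPM in NEC and 213 to 337 CPM in control. The 10 leukocyte markers summed to 163 to 244 CPM in NEC and 282 to 370 CPM in control. Most of that sum was Csf1r, at 130 CPM in NEC and 278 CPM in control on average, while 6 of the 9 leukocyte markers tested had a positive log2 fold change, and Cd68 averaged 26.5 CPM in NEC and 10.7 CPM in control without overlap. The 8 smooth muscle markers summed to 1034 to 3065 CPM in NEC and 886 to 2104 CPM in control. The 10 cell cycle markers summed to 217 to 477 CPM in NEC and 240 to 360 CPM in control. The part of these cells in the proteasome values was not tested.

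The alpha ring, built from Psma1 to Psma7, had a median log2 fold change of 0.37, with 6 of 7 positive and 0 called by edgeR or DESeq2. The median was 0.12 without control replicate 3 and 0.56 without control replicate 2. Psma6 was the 1 gene of 7 (14.3%) in which every NEC library lay above every control library, where 10.8% of all genes tested did so. It had 170, 149 and 215 CPM in NEC replicates 1 to 3 and 130, 129 and 112 CPM in control replicates 1 to 3, a log2 fold change of 0.53 (SE 0.23, edgeR adjusted p = 0.326). Psma7 had 116, 143 and 165 CPM in NEC and 109, 118 and 74.3 CPM in control, so the lowest NEC library lay just inside the control range. Psma4 and Psma5 were near equal in the groups. Psma4 had 124, 198 and 180 CPM in NEC and 175, 214 and 124 CPM in control, a log2 fold change of -0.03 (95% interval -0.71 to 0.65), and Psma5 one of 0.04 (-0.63 to 0.71). In both genes control replicate 2 was the highest library and control replicate 3 the lowest. Psma1, Psma2 and Psma3 had log2 fold changes of 0.30, 0.37 and 0.44, each with overlapping groups. Psma3 shares sequence with the pseudogenes Gm4742, Gm5406 and Gm13835, which took 34.4% of the counts of the 4 loci together, and with those counts added its log2 fold change was 0.45.

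Of the non-catalytic beta subunits Psmb1 to Psmb4, Psmb2 had the smallest p of the 31 genes and, relative to its mean, the smallest SD in each group. It had 86.7, 80.1 and 85.5 CPM in NEC replicates 1 to 3, and 46.7, 45.9 and 47.2 CPM in control replicates 1 to 3. The groups lay far apart relative to their spread, at 84.1 ± 3.5 CPM in NEC and 46.6 ± 0.653 CPM in control (SD, n = 3 each). Its fold change was 1.81 (log2 0.85, SE 0.19, 95% interval 0.40 to 1.3, edgeR unadjusted p = 0.00244), and the adjusted p of 0.1 did not pass. Without 1 library at a time the log2 fold change of Psmb2 stayed between 0.83 and 0.88. Psmb4 had 239, 241 and 320 CPM in NEC and 184, 223 and 166 CPM in control, without overlap and with an adjusted p of 0.389. Psmb3 had 130, 189 and 214 CPM in NEC and 122, 140 and 71.0 CPM in control, so NEC replicate 1 lay below control replicate 2. Psmb1 ran from 149 to 245 CPM in NEC and from 104 to 249 CPM in control, with a log2 fold change of 0.17. The 4 genes had a median of 0.58.

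**Figure D2:**
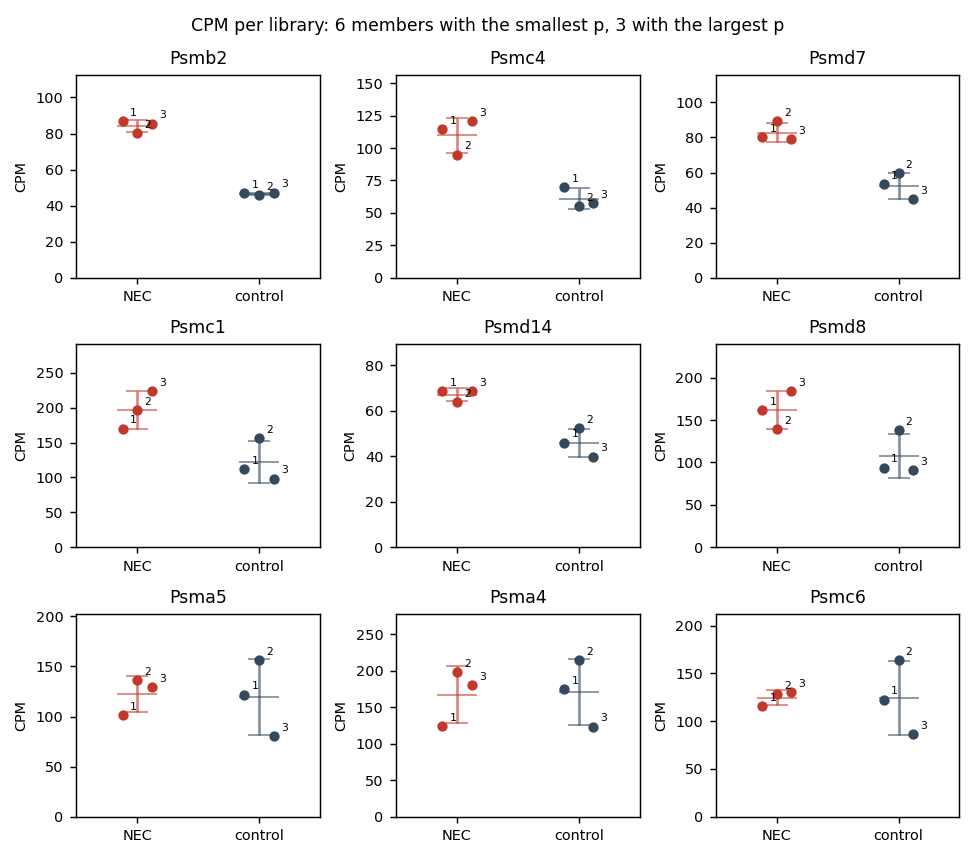
CPM in each library (points, numbered by replicate) for the 6 genes with the smallest unadjusted p and the 3 with the largest, NEC left of control. Horizontal marks are group means and bars are SD (n = 3 each). Psmb2 sits at 80.1 to 86.7 CPM in NEC and 45.9 to 47.2 CPM in control, while for Psmc6, Psma4 and Psma5 the NEC points lie within the control range.

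The ATPase ring of the base, Psmc1 to Psmc6, had 6 of 6 positive log2 fold changes with a median of 0.40, from 0.01 for Psmc6 to 0.85 for Psmc4. Of the 6, edgeR called 0 and DESeq2 called Psmc4 (adjusted p = 0.0155). The median was 0.23 without control replicate 3. Psmc4 had 114, 94.8 and 121 CPM in NEC replicates 1 to 3 and 69.9, 55.3 and 57.5 CPM in control replicates 1 to 3. All NEC libraries lay above all controls, and the fold change was 1.80 (log2 0.85, SE 0.22, edgeR adjusted p = 0.126). Psmc1 had 170, 197 and 224 CPM in NEC and 112, 156 and 98.1 CPM in control, a log2 fold change of 0.69 (SE 0.26, edgeR adjusted p = 0.259), also without overlap. Psmc6 had 116, 128 and 130 CPM in NEC and 122, 164 and 86.7 CPM in control. Its NEC libraries lay within the control range, and the log2 fold change was 0.01 (95% interval -0.62 to 0.64). Psmc2 had 109, 121 and 119 CPM in NEC and 86.9, 104 and 61.1 CPM in control, without overlap (log2 0.47). Psmc3 and Psmc5 overlapped between the groups, at 0.34 and 0.24. The difference between Psmc4 and Psmc6 was not tested.

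The promoters of these 3 ATPase genes are shown because Psmc4 and Psmc1 had the smallest p, and Psmc6 the largest, of the 26 genes with a promoter in the RefSeq table (GRCm38.p6). Each runs from 250 bases before to 50 bases after the annotated start, 5′ to 3′ on the gene's strand, with Psmc4 at chr7:28050043-28050342 (minus strand), Psmc1 at chr12:100109952-100110251 (plus strand) and Psmc6 at chr14:45329574-45329873 (plus strand). Capitals mark matches on either strand to TGANNNNGC, the core of the antioxidant response element bound by NRF1 and NRF2, or to CCAAT, the box bound by NF-Y.
Psmc4: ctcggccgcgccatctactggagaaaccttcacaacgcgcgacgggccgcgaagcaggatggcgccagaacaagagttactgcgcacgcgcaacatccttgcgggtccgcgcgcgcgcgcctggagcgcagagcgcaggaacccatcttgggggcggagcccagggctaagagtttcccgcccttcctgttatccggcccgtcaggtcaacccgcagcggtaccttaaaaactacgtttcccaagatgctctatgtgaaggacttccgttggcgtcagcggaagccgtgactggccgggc
Psmc1: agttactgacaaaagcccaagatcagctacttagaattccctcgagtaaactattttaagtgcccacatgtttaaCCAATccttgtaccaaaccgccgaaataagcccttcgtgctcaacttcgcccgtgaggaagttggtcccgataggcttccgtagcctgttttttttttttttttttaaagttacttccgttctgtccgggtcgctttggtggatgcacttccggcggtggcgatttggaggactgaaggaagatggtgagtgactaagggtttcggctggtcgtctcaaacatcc
Psmc6: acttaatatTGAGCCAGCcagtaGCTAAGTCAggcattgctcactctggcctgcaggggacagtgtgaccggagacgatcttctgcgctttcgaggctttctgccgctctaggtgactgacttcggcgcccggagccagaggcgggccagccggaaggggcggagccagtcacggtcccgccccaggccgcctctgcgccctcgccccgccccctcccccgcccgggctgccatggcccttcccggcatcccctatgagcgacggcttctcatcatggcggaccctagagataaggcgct
Psmc4 holds neither motif in this window, Psmc1 holds 1 CCAAT and Psmc6 holds 2 matches to TGANNNNGC, 1 on each strand. TGANNNNGC was found in 14 of the 26 promoters of the proteasome genes (53.8%), against 45% of the 27025 genes with a promoter of that length in the table, and CCAAT in 11 of 26 (42.3%) against 41.1%. A match is a run of letters and not a measured site. No promoter was in the table for Psmb1, Psmb2, Psmc3, Psmd3 and Psmd7.

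The other base subunits are Psmd1 and Psmd2, the large scaffold proteins that dock ubiquitin receptors and shuttles, and Psmd4, a ubiquitin receptor itself. Psmd2 had 173, 139 and 172 CPM in NEC replicates 1 to 3 and 126, 112 and 111 CPM in control replicates 1 to 3, without overlap (log2 fold change 0.47, SE 0.21, edgeR adjusted p = 0.336). Psmd1 had 109, 60.7 and 91.6 CPM in NEC and 61.5, 49.3 and 61.8 CPM in control, where NEC replicate 2 lay inside the control range. Psmd4 had 105, 90.1 and 136 CPM in NEC and 92.3, 74.1 and 71.0 CPM in control. NEC replicate 2 lay just below control replicate 1. The 3 log2 fold changes lay between 0.47 and 0.60.

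All 8 lid genes had a positive log2 fold change, where 51.9% of all genes tested did, and in 5 of 8 every NEC library lay above every control library, where 10.8% of all genes tested did so. Psmd14 encodes the metalloprotease that cuts ubiquitin chains from substrates. It had 68.6, 63.8 and 68.7 CPM in NEC replicates 1 to 3 and 45.9, 52.2 and 39.8 CPM in control replicates 1 to 3, a log2 fold change of 0.54 (SE 0.21, edgeR adjusted p = 0.271). Its partner subunit Psmd7, which lacks the active site, had 80.1, 89.2 and 79.1 CPM in NEC and 53.3, 59.6 and 44.8 CPM in control (log2 0.65, SE 0.21, edgeR adjusted p = 0.207). The NEC values of this pair varied little, with SDs of 2.80 and 5.55 CPM. Psmd8, Psmd12 and Psmd13, scaffold subunits of the lid, also did not overlap, with log2 fold changes of 0.59, 0.52 and 0.48. Of these, Psmd8 had 161, 139 and 184 CPM in NEC and 93.7, 138 and 91.0 CPM in control, so NEC replicate 2 lay above control replicate 2 by less than 2 CPM. Psmd3 and Psmd11 had another pattern across the libraries. Psmd3 had 131, 52.9 and 90.0 CPM in NEC and 55.7, 32.2 and 81.5 CPM in control, and Psmd11 had 63.6, 32.1 and 42.4 CPM in NEC and 36.5, 33.9 and 40.3 CPM in control. In both, NEC replicate 1 was the highest library, and control replicate 3 was the highest control and not the lowest. Psmd3 has the highest GC content of the 31 transcripts, 58.3%, and in the class of highest GC content the median log2 deviation over all genes was 0.29 in NEC replicate 1 and 0.26 in control replicate 3, against -0.37 in NEC replicate 2 and -0.33 in control replicate 2. Psmd11 has a GC content of 47.9%. In its class the medians were 0.06 in NEC replicate 1 and -0.04 in control replicate 3, against -0.08 in NEC replicate 2 and 0.08 in control replicate 2. The part of GC content in the values of Psmd3 and Psmd11 was not tested. Psmd6 overlapped between the groups (log2 0.36). Psmd13 shares 342 exon bases with Sirt3 on the opposite strand, and without a stated strand setting the reads of such pairs cannot be told apart. Such overlap was found for 7 of the 31 genes. The others are Psmd9, Psmd1 (252 bases, with Htr2b), Psmc3 (215, with Slc39a13), Psma4 (114), Psma5 (60) and Psmd3 (17). Psmd1 also shares 301 bases with Gm21972 on its own strand.

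**Figure D3:**
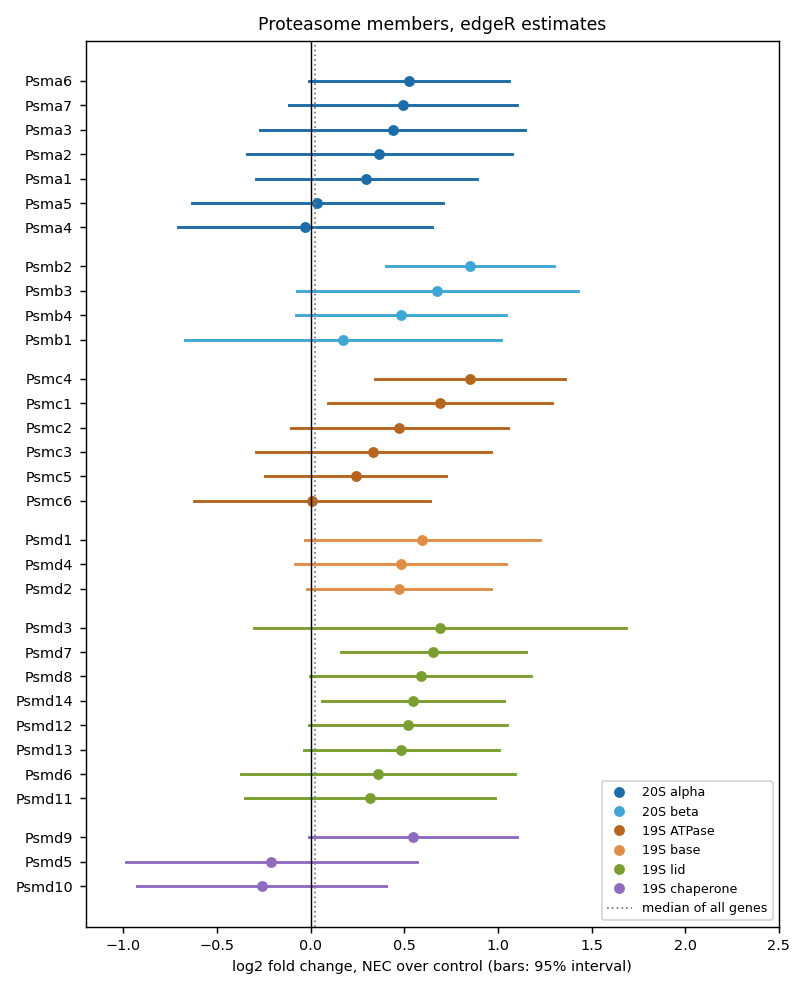
Log2 fold change of NEC over control for each gene (points) with its 95% interval from the edgeR fit (bars), grouped and coloured by role. The intervals of 5 genes, Psmb2, Psmc4, Psmc1, Psmd7 and Psmd14, lie above 0, and the dotted line is the median of all genes tested, 0.03.

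Of the 3 base chaperones, 2 had a negative log2 fold change. Psmd5 had 33.5, 50.8 and 36.6 CPM in NEC replicates 1 to 3 and 43.4, 66.5 and 29.9 CPM in control replicates 1 to 3, a log2 fold change of -0.21 (95% interval -0.99 to 0.57). Psmd10, also known as gankyrin, had 25.5, 36.9 and 34.5 CPM in NEC and 36.3, 51.1 and 28.6 CPM in control, one of -0.26 (95% interval -0.92 to 0.40). The groups overlapped in both genes, and in both the highest library was control replicate 2. Psmd10 lies on the X chromosome, and control replicate 2 is the library with the highest Xist. Control replicate 2 was also the highest library for the autosomal Psma4, Psma5, Psmb1, Psmc6 and Psmd5. A part of the X chromosome in the Psmd10 values was not tested. Psmd9 had 49.4, 36.3 and 57.3 CPM in NEC and 31.6, 34.2 and 32.0 CPM in control, without overlap (log2 0.55, SE 0.24, edgeR adjusted p = 0.326). Psmd9 shares 1849 exon bases with Gm26745 on the opposite strand. Whether the chaperones differ from the subunits was not tested. Without the 3 chaperones, 27 of 28 subunit genes had a positive log2 fold change, with Psma4 at -0.03 as the exception, which turned to 0.053 with scaling to library size only.

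Levels between genes were compared as CPM per kilobase of the principal transcript. On that scale Psmb3 and Psmb4 were the most abundant in NEC, at 232 and 226, and Psmb4 and Psma4 in control, at 161 and 147. The lowest were Psmd5, at 9.16 in NEC and 10.6 in control, and Psmd11, at 16.2 in NEC, or Psmd9, at 12.6 in control. The SD of log2 CPM per kilobase over the 31 genes ranged from 1.05 to 1.18 in NEC libraries and from 1.002 to 1.17 in control libraries. The transcript form in use was not measured, and another length would move a gene's place in this order.

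The constitutive catalytic subunit genes Psmb5, Psmb6 and Psmb7 had log2 fold changes of 0.72, 0.17 and 0.72, with 0 of 3 called by edgeR and Psmb5 at 150 ± 23.5 CPM in NEC and 90.7 ± 18.3 CPM in control. Of their 3 interferon-inducible counterparts, edgeR called 2 lower in NEC, where 0.443% of all genes tested were. Psmb8 fell to 20.2 ± 6.43 CPM in NEC, against 108 ± 38.5 CPM in control (log2 -2.41, SE 0.38, edgeR adjusted p = 0.0457), and Psmb9 fell to 5.81 ± 0.396 CPM in NEC, against 37.1 ± 10.4 CPM in control (log2 -2.68, SE 0.30, edgeR adjusted p = 0.0209). Psmb10 had a log2 fold change of -1.38 and was not called by edgeR (adjusted p = 0.107). DESeq2 called all 3 genes lower, Psmb10 with an adjusted p of 0.00475, where it called 754 of the 19176 genes tested lower. The Psmb8 call ended when any 1 library other than control replicate 2 was left out. Its edgeR adjusted p was then 0.118, 0.0747 and 0.179 for NEC replicates 1 to 3, and 0.225 and 0.102 for control replicates 1 and 3. The Psmb9 call ended on leaving out NEC replicate 1 (edgeR adjusted p = 0.0725), NEC replicate 3 (0.119), control replicate 1 (0.158) or control replicate 3 (0.0536). Over all genes, the 85 lower calls by edgeR became 24, 44 and 1 without NEC replicates 1 to 3. They became 0, 80 and 21 without control replicates 1 to 3. Over these 6 fits the log2 fold change stayed between -2.68 and -2.18 for Psmb8 and between -2.89 and -2.55 for Psmb9. Within the 4 AG181017 libraries neither was called, with a log2 fold change of -2.43 for Psmb8 (edgeR adjusted p = 0.16) and -2.53 for Psmb9 (0.105). Psmb9 shares 212 exon bases with Tap1 and Psmb8 498 with Gm20496 on the opposite strand. The activator genes Psme1 and Psme2, also known for interferon induction, had log2 fold changes of -1.06 each, with groups that did not overlap. They were not called by edgeR (adjusted p = 0.085 and 0.145), while DESeq2 called both lower (adjusted p = 0.0011 and 0.0281).

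With edgeR 0 genes of the remaining lists were called. Of the 2 further 19S subunits, the ubiquitin receptor gene Adrm1 had 120, 28.5 and 68.2 CPM in NEC replicates 1 to 3 and 33.5, 18.7 and 41.5 CPM in control replicates 1 to 3 (log2 1.21, SE 0.52, edgeR adjusted p = 0.322), the library order of Psmd3, and Sem1 had a log2 fold change of 0.11. The 5 other assembly chaperones measured had a median of 0.18, with 0.46 for Psmg4, 0.29 for Psmg2 and -0.17 for the core maturation factor Pomp. The third proteasome activator of the Psme family, Psme3, was at 0.45. The 8 deubiquitinases and shuttle receptors had a median of 0.04. Of them the shuttle Rad23b had 114 ± 17.1 CPM in NEC and 77.2 ± 3.3 CPM in control (log2 0.56, edgeR adjusted p = 0.261), Ubqln2 was at 0.43 and Zfand5 at -0.47. Among ubiquitin and E1 genes, Rps27a, which encodes ubiquitin fused to a ribosomal protein, was at 1.4 and the E1 gene Uba6 at -0.57.

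The 6 genes around NRF1 had a median of -0.26. The segregase gene Vcp, needed to extract NRF1 from the endoplasmic reticulum, was at 0.33, with groups that did not overlap. Sel1l was at -0.52 and Ddi2, the protease that activates NRF1, at -0.24. Nfe2l1, which encodes NRF1 itself and is named after its values were seen, had 51.8, 17.9 and 22.2 CPM in NEC replicates 1 to 3 and 16.2, 16.8 and 108 CPM in control replicates 1 to 3. Control replicate 3 was thus the highest library for Nfe2l1 and the lowest for 24 of the 31 proteasome genes. Its log2 fold change was -0.62 (SE 0.78), and 0.89 without control replicate 3.

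**Figure D4:**
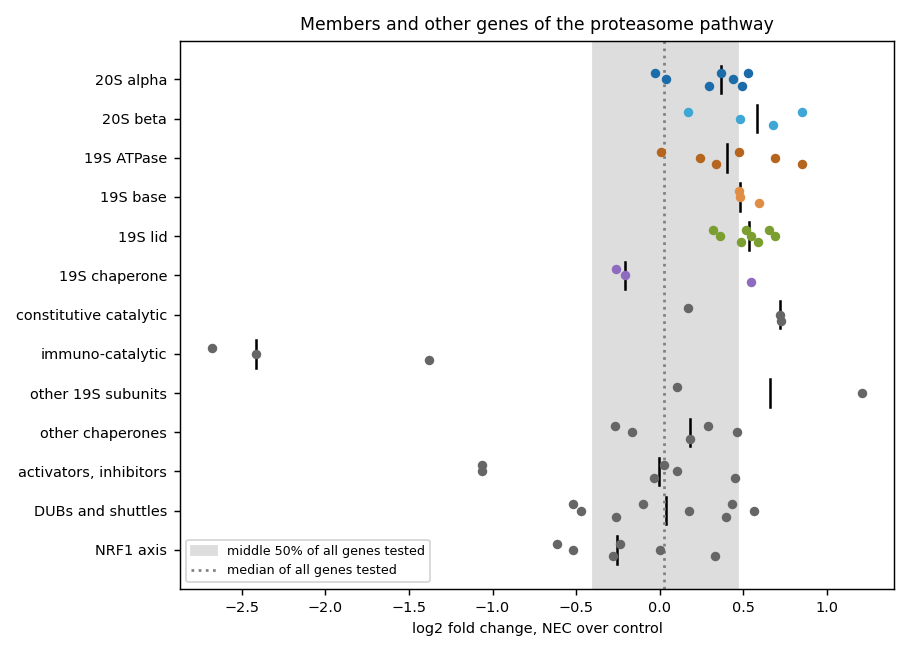
Log2 fold change of NEC over control for the 31 genes by role (coloured points) and for other proteasome pathway genes by list (grey points), with list medians as black marks. The list of ubiquitin and E1 genes is not shown. The grey band holds the middle 50% of all genes tested, from -0.40 to 0.47. The medians of the 5 subunit lists sit right of the dotted median of all genes, and Psmb8, Psmb9 and Psmb10 sit left at -2.41, -2.68 and -1.38.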

How the data were processed

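Raw gene counts of 6 libraries were deposited as 1 table, from paired NovaSeq reads of 150 bp, per the labels' protocols. The build is mm10 per the submitters' processing notes. Aligner, counter, annotation and strandedness are not given in the sources. Of the 54446 identifiers, 54409 matched a symbol in GENCODE release M21 or, failing that, in a further list of gene names. Counts at multiples of 4 were 1.89 times as frequent as their neighbours between 8 and 40, and the cause was not tested. Each of the 31 genes had 2239 to 22782 counts in every library and passed the filter.

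Genes kept by filterByExpr (minimum count 10) entered edgeR 4.0.16 under R 4.3.3 (TMM, quasi-likelihood F test, robust dispersion, Benjamini-Hochberg adjustment over all genes). CPM are TMM-scaled. Each SE is the absolute log2 fold change over the square root of the F value of that test. The 95% intervals are built on these SEs, so they add nothing to the unadjusted p. DESeq2 1.42.0, voom in limma 3.58.1, other scalings, filters and terms, and each library left out were alternatives. Pseudogenes of at least 95% identity over at least 300 bases were found with blastn 2.17.0. All 31 genes were named, and of each other list called genes and the 3 with the smallest p. A gene that this rule names is not reported here. The genes and lists were chosen with earlier results of these data known. The fit was run on counts simulated with known fold changes, and how many of these it called is not given here. No library pair of a group differed by as little as sampling noise.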

Additional observations from a re-analysis of the deposited data

How the results depend on the processing

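Under the alternatives listed here the count of the 31 genes called lower stayed at 0, and that of genes called higher stayed at 0 except with DESeq2, where it was 2, Psmb2 (adjusted p = 0.00174) and Psmc4 (0.0155). The median over the 31 genes stayed between 0.37 and 0.54 in the fits with all libraries or the 4 AG181017 libraries, and between 0.37 and 0.56 without 1 library. Without 1 library 25 to 30 of the 31 genes had a positive value, where 48.9% to 53.5% of all genes tested did. The 5 genes at an unadjusted p below 0.05 became 9 with upper quartile scaling or DESeq2, 13 with library size only, 16 with the sample code as a term, 3 within the AG181017 libraries, 11 with the GC trend and 12 with the length trend removed, and 2 to 10 without 1 library. Over all genes, 1459 of 19176 were higher at that level in the fit used for the results. They became 1437 with upper quartile scaling, 1828 with DESeq2, 1623 with library size only and 2047 with the sample code as a term. Within AG181017 they were 1391 of 19401. They were 1627 with the GC and 1536 with the length trend removed, and 890 to 1518 without 1 library. Among the 31 genes the smallest adjusted p with the sample code as a term was 0.065. Without 1 library the median was 0.12 to 0.56 for the alpha ring, 0.23 to 0.58 for the ATPases and -0.45 to 0.13 for the base chaperones. Near 0, signs turned: Psma4 was at 0.053 with library size only and 0.00084 with the GC trend removed, Psma5 at -0.088 within AG181017 and -0.042 with the length trend removed, Psmc6 at -0.00097 with the stricter filter of 50 counts in 3 libraries and -0.17 within AG181017, Psmb6 at -0.029 with the length trend removed, and Nfe2l1 at 0.25 within AG181017. Without 1 library the ranges were -0.23 to 0.16 for Psma4, -0.19 to 0.27 for Psma5, -0.13 to 0.44 for Psmb1, -0.21 to 0.25 for Psmc6, -0.46 to 0.13 for Psmd5, -0.019 to 0.31 for Psmb6, -0.19 to 0.40 for Sem1, -0.36 to 0.051 for Pomp and -1.23 to 0.89 for Nfe2l1. The causes were not tested. Over all genes, 50 higher and 85 lower calls became 692 and 754 with DESeq2, 2 and 1 without NEC replicate 3, and 0 and 0 without control replicate 1 (900 and 967 at an unadjusted p below 0.05). Same-numbered libraries correlated at -0.14, 0.27 and -0.01 in their deviations from the group means, so the numbers were not taken as pairs; with the replicate block the median was 0.48, 0 genes were called and the smallest adjusted p was 0.161.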
